A study of Mus musculus with 10 samples.

Results

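The interferon response genes described here are 39 genes named by symbol (one of them, Ddx58, is also called Rigi), and the members are all probe sets of the array that the platform annotation gives to exactly 1 of these genes. The array held such probe sets for 37 of the 39 genes, 65 probe sets in all, out of 45037 probe sets and 18193 named genes. Ifi44 had none, and the probe set of Isg15 is annotated to a second gene as well, so the signal of neither is analysed here. Of the 37 genes, 21 were read by 1 probe set and the others by up to 5. The brightest probe set, by mean log2 signal over the 10 arrays, stands for each gene.

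The 10 arrays hold RNA of mouse skin keratinocytes from 4 groups: 3 arrays of cultured primary RhoA-KO keratinocytes, 3 of cultured primary Wildtype keratinocytes, 2 of freshly isolated RhoA-KO keratinocytes and 2 of freshly isolated Wildtype keratinocytes. RhoA is a small GTPase that controls the actin cytoskeleton. RhoA-KO animals are labelled RhoA fl/fl K5 cre, and the animals called Wildtype in the titles are labelled RhoA fl/+ K5 cre, so the controls carry the Cre recombinase and 1 floxed RhoA allele too. The K5 (keratin 5) promoter drives Cre in basal keratinocytes and their descendants, so other cells of the epidermis are not targeted by it. No label ties an array to an animal or a culture, although the titles speak of biological replicates. The p-values below therefore describe the spread between arrays, part of which may be technical. Animal age and time in culture are not in the labels.

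Interferons are secreted proteins that bind receptors on the cell surface and switch on a shared set of antiviral genes. Type I and type III interferons act through the kinases Jak1 and Tyk2 to assemble a complex that includes Stat2 and Irf9 and binds the interferon-stimulated response element (ISRE) in promoters. Interferon gamma acts through a different promoter element, the gamma-activated site (GAS). The induced proteins sense foreign RNA and DNA, block viral replication, present antigen, or feed back on the pathway. Keratinocytes of the epidermis can both make and answer interferons, and a low level of these genes without infection is known in many tissues.

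The ISRE letters are what the list is known for, and the promoters of a few members are shown for that reason. RefSeq promoter sequences (build GRCm38.p6, from 250 bases before to 50 bases after the start of transcription) matched 30 of the 39 genes by symbol. These were 28 measured members and also Isg15 and Ifi44. The ISRE core was searched on both strands as 2 copies of GAAA with any 2 bases between them. It was present in the promoter of 11 of the 30 genes (36.7%), Isg15 among them, against 1079 of all 27025 genes of the table (3.99%). The GAS was searched as TTCNNNGAA, which reads the same on both strands, and was present in 9 of the 30 genes (30%), against 2582 of all genes (9.55%). ISRE and GAS matches overlapped each other in 1 member promoter, that of Bst2. The lines below give the stretch around the ISRE match of 6 members whose match lies upstream of the start, with 15 bases on either side and the matches in capitals, 5′ to 3′ on the strand of the gene.

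Stat2, chr10:128270261-128270300, plus strand: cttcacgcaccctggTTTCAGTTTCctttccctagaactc

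Ifit1, chr19:34640770-34640828, plus strand: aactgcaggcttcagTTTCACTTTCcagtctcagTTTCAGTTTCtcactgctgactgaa

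Ifit3, chr19:34583358-34583431, plus strand: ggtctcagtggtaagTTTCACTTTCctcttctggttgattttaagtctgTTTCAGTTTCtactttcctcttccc

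Oas3, chr5:120777710-120777749, minus strand: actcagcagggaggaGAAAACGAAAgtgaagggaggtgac

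Rsad2, chr12:26456548-26456587, minus strand: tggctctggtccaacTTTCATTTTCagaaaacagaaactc

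Bst2, chr8:71537572-71537617, minus strand: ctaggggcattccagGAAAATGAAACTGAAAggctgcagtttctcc

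Ifit1 and Ifit3 each hold a pair of matches in the TTTC orientation, and the matches of Bst2 share letters. Ifi35, whose change in culture is given further on, held no ISRE match by these letters in its promoter and 1 GAS match, which begins 7 bases after the start. Its promoter, chr11:101448162-101448461 on the plus strand, is printed with the GAS letters in capitals.

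Ifi35: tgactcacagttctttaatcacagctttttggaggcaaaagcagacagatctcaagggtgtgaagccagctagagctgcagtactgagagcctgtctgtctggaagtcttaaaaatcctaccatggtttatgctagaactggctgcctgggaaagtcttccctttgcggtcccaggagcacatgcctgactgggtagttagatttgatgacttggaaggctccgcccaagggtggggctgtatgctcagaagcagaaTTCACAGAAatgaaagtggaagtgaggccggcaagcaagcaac

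The deposited signals of cultured and fresh arrays lie on different scales. The median signal was 7.75 to 8 on the 6 cultured arrays and 64.1 to 64.8 on the 4 fresh arrays, and 53.9% to 54.3% of all probe sets read under 10 on cultured arrays, against 0.102% to 0.140% on fresh arrays. Signals under 10 in culture are called the floor here. A gap in signal between the conditions is therefore no measure of a change, and where signals of both are given below they show only where each lies on its own scale. Cultured and fresh cells were compared by percentile rank, the place of a probe set among all probe sets of its own array, from the dimmest to the brightest. Of 3 Rhoa probe sets, the brightest read 8209, 7839 and 7628 in cultured RhoA-KO arrays, against 11249, 9879 and 9240.2 in Wildtype arrays, and 4398 and 4296 in fresh RhoA-KO arrays, against 3526 and 4059 in Wildtype arrays. Neither comparison passed the threshold (limma adjusted p = 0.156 and 0.434). The sources used here do not say whether these probe sets lie in the floxed part of the gene, so they do not check the labels, and groups are named as labelled throughout. The basal keratin genes Krt5 and Krt14 ranked at 99.6 and 99.7 or higher on every cultured array and at 99.8 and 99.9 or higher on every fresh array. Krt1, a keratin of the suprabasal layers, ranked on average at 37.2 in culture and at 99.6 in fresh cells. Log2 signals of arrays from the same group correlated across probe sets with r between 0.996 and 0.999 (culture) or between 0.988 and 0.995 (fresh cells). Fresh RhoA-KO replicate 2 stood apart. Its summed signal over 6 hair follicle genes was 30788, against 303 in RhoA-KO replicate 1 and 1003 and 403 in Wildtype arrays. On the same array 5 melanocyte genes summed to 4349.8, against 892 in RhoA-KO replicate 1 and 581 and 439 in Wildtype arrays. There 6 fibroblast genes summed to 1344, against 445 in RhoA-KO replicate 1 and 303 and 278 in Wildtype arrays.

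Many of the interferon response genes ranked lower in cultured than in fresh keratinocytes. By representative probe set, 19 of the 37 measured members (51.4%) were at least 20 percentile points lower on average in culture, with every cultured array below every fresh array, while 14.3% of all named genes met the same rule. In the opposite direction, 2 members (5.41%) were higher in culture, against 11.7% of all genes. The 2 conditions were processed on different scales, so condition and processing cannot be told apart, and no test was made. The median percentile over the 37 members lay between 41.7 and 48.0 on the cultured arrays and between 63.4 and 67.6 on the fresh arrays. Setting all ranks under the array median to the median removes the order in most of the cultured floor, though not between the median and 10. With ranks tied in this way, 10 members (27.0%) were still lower by the same rule, against 3.56% of all genes, and none was higher. Those 10 were Usp18, Oas1f, Irf9, Ifih1, Ifi27l2a, Parp9, Parp14, Psmb8, Psmb9 and Tap1. The same rule within Wildtype arrays alone gave 19 lower members and within RhoA-KO arrays alone 18, and all 18 were among the 19.

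**Figure D1:**
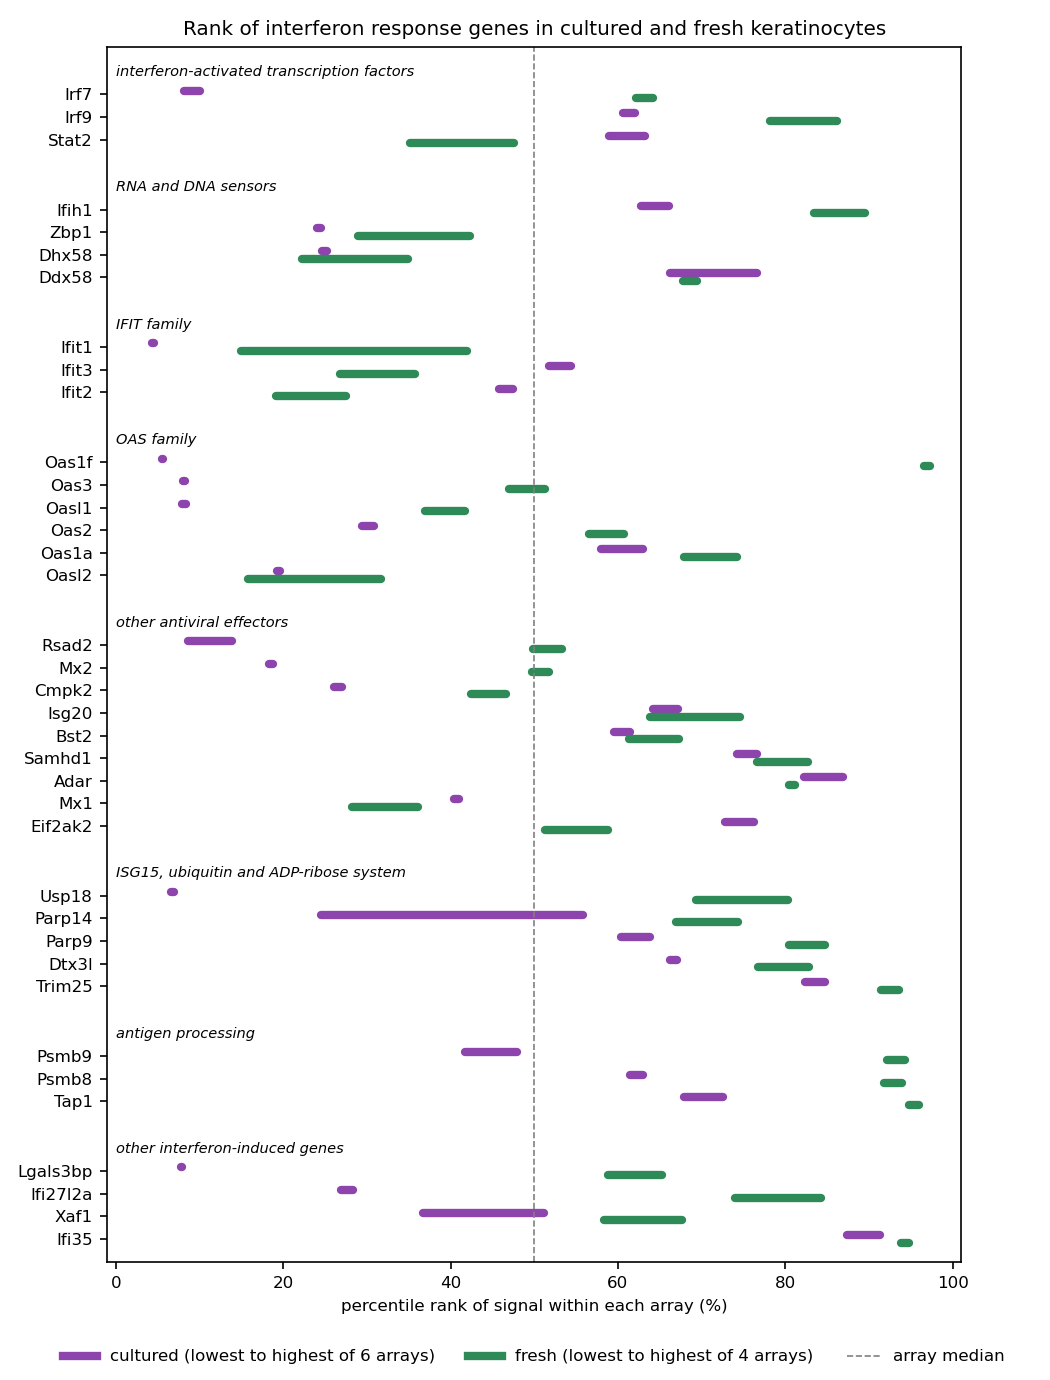
Percentile rank of each member's representative probe set within its array (x axis, %), by role. Purple bars run from the lowest to the highest of the 6 cultured arrays and green bars from the lowest to the highest of the 4 fresh arrays, and the dashed line is the array median. Oas1f, Usp18 and Irf7 have the widest gaps, and 15 members lie right of the median on all 10 arrays.

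The members split around the array median. On every fresh array, 24 of the 37 members were above the median (64.9%, against 58.5% of all genes). On every cultured array, 17 were above it (45.9%, against 58.8% of all genes). In all, 19 members read under 10 on all cultured arrays (51.4%, against 41.7% of all genes). Of the 24 that were above the median on all fresh arrays, 8 (33.3%) read under 10 on all cultured arrays, against 10.9% of all genes above the median in fresh cells. The 8 were Usp18, Oas1f, Oas2, Irf7, Ifi27l2a, Xaf1, Psmb9 and Lgals3bp. Another 8 members were under the median on all 10 arrays: Ifit1, Ifit2, Oasl1, Oasl2, Mx1, Dhx58, Cmpk2 and Zbp1. A full crossing of the median, with every fresh array above it and every cultured array not, was seen for 7 members (18.9%, against 5.56% of all genes), Usp18, Oas1f, Oas2, Irf7, Ifi27l2a, Psmb9 and Lgals3bp. The opposite crossing was seen for Ifit3 and Stat2 (5.41%, against 5.03%).

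Among the transcription factors, Irf7, the factor that amplifies type I interferon production, was close to the floor in culture. It read 4.24, 4.25 and 4.26 in RhoA-KO arrays, against 4.24, 4.27 and 4.12 in Wildtype arrays, and its rank ran from 8.1 to 10.1 on cultured arrays and from 62.2 to 64.2 on fresh arrays. In fresh cells it read 127 and 138 in RhoA-KO arrays, against 149 and 129 in Wildtype arrays. Irf9, the DNA-binding partner of Stat2, stayed above the median in both settings. Its signal was 31.8, 32.2 and 32.8 in RhoA-KO arrays, against 40.7, 32.4 and 33.8 in Wildtype arrays of cultured cells, with ranks from 60.6 to 62.0 on cultured arrays and from 78.2 to 86.1 on fresh arrays. Stat2 went the other way, with ranks from 58.9 to 63.2 on cultured arrays and from 35.1 to 47.6 on fresh arrays. Its representative probe set read 38.3, 40.6 and 38.8 in RhoA-KO arrays, against 20.8, 53.5 and 40.4 in Wildtype arrays of cultured cells. Wildtype replicate 1 was the lowest of these and Wildtype replicate 2 the highest, with the RhoA-KO arrays between them. In fresh cells it read 57.9 and 46.8 in RhoA-KO arrays, against 48.8 and 39.2 in Wildtype arrays. The second Stat2 probe set ranked from 12.6 to 17.1 on cultured arrays and from 44.1 to 51.4 on fresh arrays, so the 2 probe sets of this gene disagree about culture.

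By representative probe set, the cytosolic RNA sensors did not shift alike. Ifih1, a sensor of long double-stranded RNA, ranked from 62.7 to 66.1 on cultured arrays and from 83.4 to 89.5 on fresh arrays. Ddx58 (RIG-I), which senses short RNA with a free triphosphate end, ranked from 66.3 to 76.6 on cultured arrays and from 67.8 to 69.5 on fresh arrays, so the ranges of both conditions overlapped. The other Ddx58 probe sets moved in opposite directions. The second was lower in culture by the rule, from 17.5 to 18.0 on cultured arrays and from 35.0 to 39.8 on fresh arrays. The third was higher, from 58.7 to 64.4 on cultured arrays and from 33.1 to 42.4 on fresh arrays. Dhx58, a related helicase that modulates both sensors, and Zbp1, a sensor of Z-form nucleic acid, were under the median on all arrays.

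The IFIT genes, whose products bind viral RNA, were dim everywhere. Ifit1 ranked on average at 4.46 in culture and at 33.7 in fresh cells. Ifit2 and Ifit3 were the members with a higher rank in culture, from 45.8 to 47.5 on cultured arrays and from 19.2 to 27.5 on fresh arrays for Ifit2 and from 51.7 to 54.4 on cultured arrays and from 26.9 to 35.8 on fresh arrays for Ifit3. Ifit3 read 9.12, 9.19 and 10.4 in RhoA-KO arrays, against 8.39, 9.30 and 9.09 in Wildtype arrays of cultured cells and 31.5 to 39.9 on fresh arrays. Ifit2 read 6.85, 6.93 and 7.01 in RhoA-KO arrays, against 6.92, 7.20 and 7.13 in Wildtype arrays of cultured cells. Both genes thus lay at or just above the floor, and neither was higher once ranks under the median were tied.

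Of the OAS genes, which encode synthetases of the oligoadenylates that activate RNase L and their relatives, 4 of 6 ranked lower in culture and none higher. Oas1f had the widest gap of all members, with ranks from 5.5 to 5.7 on cultured arrays and from 96.5 to 97.3 on fresh arrays. Its probe set read 3.96 to 4.02 on cultured arrays. On fresh arrays it read 3412 and 2849.9 in RhoA-KO arrays, against 2912 and 2775 in Wildtype arrays, and the groups overlapped. Oas2 ranked from 29.4 to 30.9 on cultured arrays and from 56.5 to 60.7 on fresh arrays, and Oas3 from 8.0 to 8.3 on cultured arrays and from 46.9 to 51.3 on fresh arrays, near the fresh median. Oas1a was the only OAS member above the cultured median on every array, with ranks from 58.0 to 63.0 on cultured arrays and from 67.9 to 74.2 on fresh arrays.

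Among the other antiviral effectors, Rsad2, the enzyme viperin that makes a chain-terminating nucleotide, and the dynamin-like GTPase gene Mx2 ranked lower in culture. Rsad2 ranked from 8.7 to 13.9 on cultured arrays and from 49.9 to 53.3 on fresh arrays, and Mx2 from 18.3 to 18.8 on cultured arrays and from 49.7 to 51.8 on fresh arrays, so both were close to the fresh median. Adar, the editor of adenosines in double-stranded RNA, ranked from 82.2 to 86.9 on cultured arrays and from 80.4 to 81.2 on fresh arrays. Samhd1, a hydrolase of deoxynucleotides, ranked from 74.2 to 76.6 on cultured arrays and from 76.6 to 82.7 on fresh arrays. Eif2ak2, the RNA-activated kinase PKR, ranked from 72.8 to 76.3 on cultured arrays and from 51.3 to 58.8 on fresh arrays, higher in culture by 19.0 points on average and so just short of the rule. The RNA exonuclease gene Isg20 and Bst2, which tethers budding virus to the membrane, were above the median on all 10 arrays.

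In the ISG15, ubiquitin and ADP-ribose system, Usp18, the protease that removes ISG15 and restrains the interferon receptor, was at the floor in culture. It read 4.04 to 4.11 on cultured arrays, with ranks from 6.6 to 6.9 on cultured arrays and from 69.3 to 80.3 on fresh arrays. Parp9 and its partner ubiquitin ligase gene Dtx3l stayed above the median in culture, with ranks from 60.4 to 63.8 on cultured arrays and from 80.5 to 84.8 on fresh arrays for Parp9 and from 66.2 to 67.0 on cultured arrays and from 76.8 to 82.8 on fresh arrays for Dtx3l. Trim25, the ubiquitin ligase that acts on the RIG-I pathway, ranked from 82.4 to 84.7 on cultured arrays and from 91.5 to 93.6 on fresh arrays.

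All 3 antigen processing genes ranked lower in culture. Psmb9, an immunoproteasome subunit, ranked from 41.7 to 48.0 on cultured arrays and from 92.2 to 94.3 on fresh arrays. Its partner subunit Psmb8 ranked from 61.4 to 62.9 on cultured arrays and from 91.7 to 93.9 on fresh arrays, and the peptide transporter gene Tap1 ranked from 67.9 to 72.6 on cultured arrays and from 94.8 to 96.0 on fresh arrays. Ifi27l2a, a small interferon-induced membrane protein, ranked from 26.9 to 28.3 on cultured arrays and from 73.9 to 84.3 on fresh arrays. Lgals3bp, a secreted galectin-binding glycoprotein, ranked from 7.8 to 7.9 on cultured arrays and from 58.8 to 65.2 on fresh arrays. Ifi35, an interferon-induced partner of Nmi, was among the brightest in both, with ranks from 87.3 to 91.3 on cultured arrays and from 93.8 to 94.8 on fresh arrays.

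Markers of some other cell types ranked lower in culture too. The same rule was met by 7 of 11 Langerhans cell and myeloid markers (63.6%) and 4 of 5 measured T cell markers (80%), against 14.3% of all genes. It was also met by 3 of 7 keratinocyte markers (42.9%), 2 of 6 hair follicle markers and 2 of 6 fibroblast markers. Of the remaining lists, 1 of 4 plasmacytoid dendritic cell, 1 of 5 endothelial and 0 of 5 melanocyte markers met it. All but 1 of the 11 Langerhans cell and myeloid markers read under 10 on every cultured array, as did 41.7% of all genes. The summed signal of the 11 there was 63.4, 63.4 and 66.0 in RhoA-KO and 63.5, 64.3 and 64.1 in Wildtype arrays. On fresh arrays the sum was 15861 and 7561 in RhoA-KO and 24033 and 19126 in Wildtype arrays. The Langerhans cell marker Cd207 (langerin) ranked on average at 15.1 in culture and at 87.8 in fresh cells, and the T cell receptor subunit gene Cd3g on average at 15.9 in culture and at 91.3 in fresh cells. The T cell markers under 10 on every cultured array numbered 4, and the exception was Cd3e, at 6479 to 6822. The part of these cells in the lower ranks of the members in culture was not tested. In such bulk samples fewer cells of a type and less RNA per cell cannot be told apart.

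The first comparison of genotypes asks whether loss of RhoA changed these genes in cultured keratinocytes. Of the 37 members, 17 passed the filter on dim probe sets (2 or more of the 6 arrays above that array's median), and 1 of them was called, Ifi35, which was higher in RhoA-KO. Over all 22682 probe sets tested, 0.181% were called higher and 0.0926% lower. Ifi35 read 2292, 2515 and 2297 in RhoA-KO arrays, against 1565, 1547 and 1426 in Wildtype arrays, and the groups did not overlap. Its signal averaged 2368 ± 127 in RhoA-KO and 1513 ± 75.5 in Wildtype cells (SD, n = 3 each), a 1.57-fold difference (log2 change 0.65, SE 0.073, limma adjusted p = 0.0472). The call lay close to the threshold. It was lost when any 1 of the 6 arrays was left out (adjusted p = 0.0676 to 0.222, log2 change 0.60 to 0.67).

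The other Ifi35 probe sets pointed the same way. The second read 264, 305 and 262 in RhoA-KO arrays, against 191, 188 and 154 in Wildtype arrays (log2 change 0.65, SE 0.13, limma adjusted p = 0.129). The third read 236, 246 and 220.5 in RhoA-KO arrays, against 187, 175 and 174 in Wildtype arrays (log2 change 0.39, SE 0.099, limma adjusted p = 0.175). On each, every RhoA-KO array was above every Wildtype array.

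**Figure D2:**
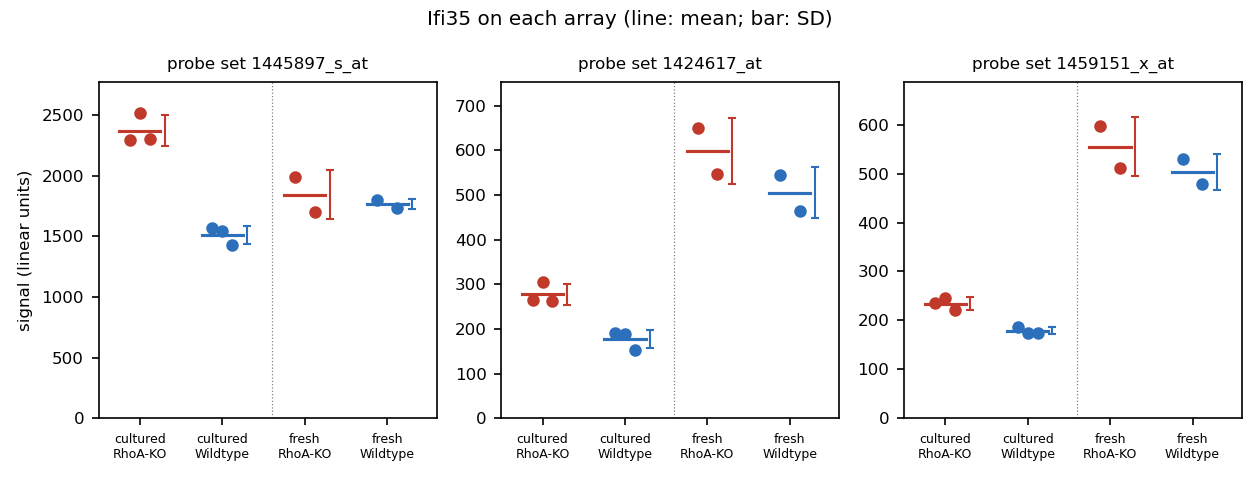
Signal of the 3 Ifi35 probe sets on each array (y axis, linear units starting at 0). Points are arrays, horizontal lines group means and vertical bars the SD, red for RhoA-KO and blue for Wildtype, and cultured and fresh arrays are on different scales and not to be compared in height. On all 3 probe sets the cultured RhoA-KO points lie above the cultured Wildtype points.

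No other member passed the threshold in culture, and the following values describe those with the smallest p by representative probe set. Adar read 1328, 1197 and 1179.6 in RhoA-KO arrays, against 777, 987 and 1114 in Wildtype arrays (log2 change 0.38, SE 0.15, limma adjusted p = 0.302), and Samhd1 365, 387 and 394 in RhoA-KO arrays, against 353, 299 and 303 in Wildtype arrays (log2 change 0.27, SE 0.11, limma adjusted p = 0.308). Neither gene's groups overlapped. Oas1a read 21.6, 37.9 and 52.1 in RhoA-KO arrays, against 17.2, 21.8 and 18.3 in Wildtype arrays (log2 change 0.88, SE 0.32, limma adjusted p = 0.283). Its RhoA-KO replicate 1 lay among the Wildtype arrays. Parp9 read 40.1, 63.9 and 49.3 in RhoA-KO arrays, against 41.0, 35.8 and 29.2 in Wildtype arrays (log2 change 0.52, SE 0.21, limma adjusted p = 0.319), again with RhoA-KO replicate 1 among the Wildtype arrays. Ifih1 read 46.3, 86.8 and 56.2 in RhoA-KO arrays, against 91.5, 85.0 and 82.1 in Wildtype arrays (log2 change -0.50, SE 0.24, limma adjusted p = 0.375), with RhoA-KO replicate 2 inside the Wildtype range. In both sensor genes that passed the filter the change pointed down, and for Ddx58 it was -0.79 (adjusted p = 0.476). Another Ddx58 probe set read 25.2, 33.3 and 20.4 in RhoA-KO arrays, against 38.15, 48.8 and 66.6 in Wildtype arrays. Its groups did not overlap (log2 change -0.95, SE 0.26, limma adjusted p = 0.194). Upwards, another Trim25 probe set also had groups that did not overlap (log2 change 0.36, SE 0.096, limma adjusted p = 0.187).

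By representative probe set, groups did not overlap for 3 of the 17 members upwards (17.6%, against 10.1% of probe sets) and for none downwards (against 12.2%). At an unadjusted p under 0.05, 4 of 17 were higher (Ifi35, Oas1a, Adar and Samhd1), against 7.16% of probe sets, and 0 were lower, against 8.49%. Of the 17, 13 had a positive log2 change (76.5%, against 47.2% of probe sets), with a median of 0.14, while the median over all probe sets was -0.0068. These shares cover only members bright enough to be tested. Without the filter the median over all 37 members was 0.0011. Melanocyte markers had positive log2 changes in culture too: 3 of 4 tested had an unadjusted p under 0.05, 0 were called, and the median log2 change was 1.36. The sum over 5 such markers was 418, 779.8 and 1315 in RhoA-KO arrays, against 217, 475 and 259 in Wildtype arrays. RhoA-KO replicate 3 was the highest array for this sum and for Oas1a. The part of these cells in the members' values was not tested. Irf9 and Stat2 had log2 changes of -0.14 (adjusted p = 0.586) and 0.14 (adjusted p = 0.882). The 20 members that were not tested in culture included Irf7, Usp18 and Psmb9, for which a genotype effect was not detectable at these signals.

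**Figure D3:**
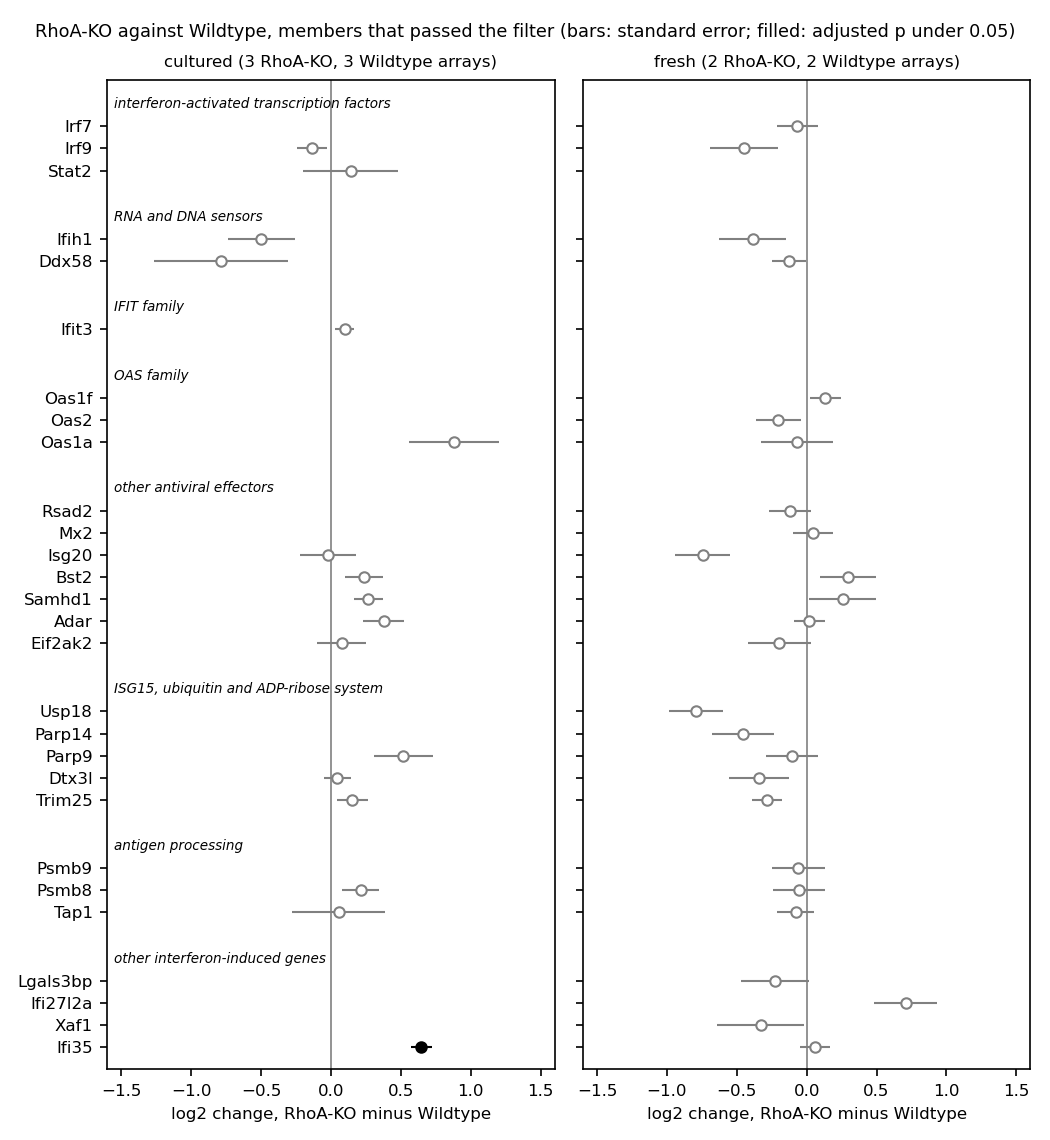
Log2 change of RhoA-KO over Wildtype (x axis) for the members that passed the filter in cultured cells (left panel) and in fresh cells (right panel), by role. Points are limma estimates, bars their standard errors, and the filled point is the 1 member past the threshold. Most cultured points lie right of 0 and most fresh points left of 0.

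The second comparison asks the same of freshly isolated cells. With 2 arrays per group, limma called 0 of the 26 members that passed the filter, and 0 of all 22893 probe sets tested (0%). At an unadjusted p under 0.05, 1 member was higher in RhoA-KO (Ifi27l2a, 3.85%, against 6.01% of probe sets) and 3 were lower (Usp18, Isg20 and Trim25, 11.5%, against 6.89%). A single limma fit over all 10 arrays called 1 member, Usp18 (adjusted p = 0.0354), and 1.46% of the 26841 probe sets it tested. That fit pools the spread of cultured and fresh arrays. Usp18 read 4.04 to 4.11 on cultured arrays, at the floor, so this p does not describe the spread between fresh arrays. With the fresh arrays alone its limma adjusted p was 0.289. Groups did not overlap downwards for 8 members (30.8%, against 23.5% of probe sets) and upwards for 1 (3.85%, against 23.5%). Those lower were Isg20, Usp18, Irf9, Rsad2, Ddx58, Trim25, Parp14 and Dtx3l. Of the 26, 7 had a positive log2 change (26.9%, against 49.9% of probe sets).

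Usp18 read 284 and 209.7 in RhoA-KO arrays, against 386 and 463 in Wildtype arrays (log2 change -0.79, SE 0.19, limma adjusted p = 0.289). Isg20 read 194 and 142 in RhoA-KO arrays, against 257 and 302 in Wildtype arrays (log2 change -0.74, SE 0.20, limma adjusted p = 0.303). In both, the RhoA-KO arrays were below the Wildtype arrays, and replicate 2 was the lowest. Trim25 read 1419.7 and 1244 in RhoA-KO arrays, against 1678 and 1562 in Wildtype arrays (log2 change -0.28, SE 0.11, limma adjusted p = 0.372). All 3 Trim25 probe sets pointed down in fresh cells, with log2 changes of -0.30 to -0.28. Ifi27l2a stood against these, at 643 and 445 in RhoA-KO arrays, against 371 and 289 in Wildtype arrays (log2 change 0.71, SE 0.22, limma adjusted p = 0.331). The ADP-ribosyltransferase gene Parp14 read 270.0 and 176 in RhoA-KO arrays, against 299 and 299 in Wildtype arrays (log2 change -0.46, SE 0.22, limma adjusted p = 0.455), and Irf9 647 and 397 in RhoA-KO arrays, against 649.6 and 735 in Wildtype arrays (log2 change -0.45, SE 0.24, limma adjusted p = 0.497). In these 2 genes replicate 1 of RhoA-KO lay below both Wildtype arrays and replicate 2 further below.

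**Figure D4:**
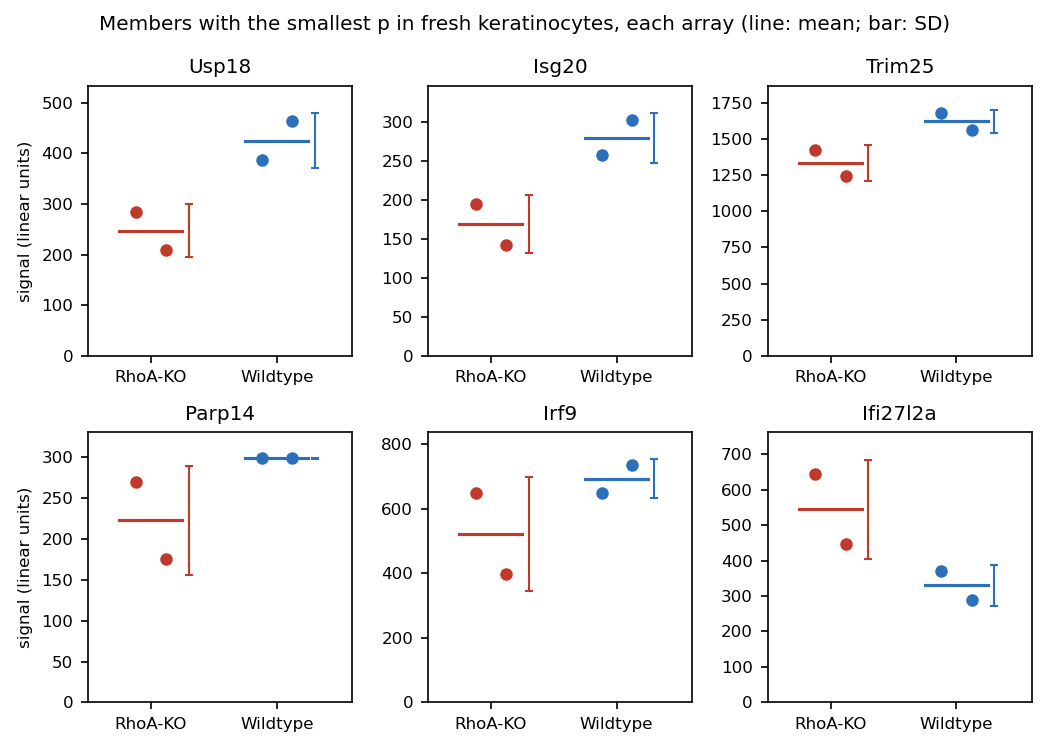
Signal of the 6 members with the smallest p in fresh cells on each array (y axis, linear units starting at 0), RhoA-KO in red and Wildtype in blue, with group means as lines and the SD as bars (n = 2 each). RhoA-KO arrays lie below Wildtype arrays in 5 of the 6 panels and above in that of Ifi27l2a, and none of the 6 passed the threshold.

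The lower fresh values rest largely on 1 array. Of the 26 members tested, 18 (69.2%) were lowest on RhoA-KO replicate 2, which is the lowest array for 32.7% of all probe sets tested. The median log2 change over the 26 members was -0.11, and over all probe sets -0.00034. It was 0.0031 without RhoA-KO replicate 2 and -0.28 without RhoA-KO replicate 1. With replicate 2 as the only RhoA-KO array, assumed to vary like the Wildtype arrays, 5 members were called lower: Usp18, Isg20, Irf9, Ifih1 and Parp14 (945 probe sets, or 4.2% of those tested, were called in all). With replicate 1 as the only one, 0 members and 11 probe sets were called. The same array held the hair follicle, melanocyte and fibroblast transcripts given above and the lowest sum of Langerhans cell and myeloid markers, 7561, and 8 of the 10 such markers tested were lower in RhoA-KO at an unadjusted p under 0.05, with 0 called. The part of this cell mixture in the members' values was not tested. Tap1, Psmb8 and Psmb9 had log2 changes of -0.079, -0.055 and -0.060 in fresh cells.

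The third comparison asks whether the genotype effect differed between culture and fresh cells. Of the 15 members tested in both, 1 passed the test of the difference, Ifi35, which was higher in culture (6.67%, against 1.95% of 18773 probe sets in either direction and 0.799% higher in culture). Its log2 change by representative probe set was 0.65 in culture and 0.057 in fresh cells. In fresh cells it read 1985 and 1698 in RhoA-KO arrays, against 1796 and 1734 in Wildtype arrays. The difference was 0.59 (SE 0.13, adjusted p = 0.0466, from both limma fits). It did not pass with the more cautious Satterthwaite degrees of freedom (adjusted p = 0.0694), with the median over its 3 probe sets (difference 0.36, adjusted p = 0.257), or when 1 array was left out, for 8 of the 10 arrays (adjusted p up to 0.240). At an unadjusted p under 0.05 stood 5 of the 15 (33.3%, against 18.9% of probe sets): Ifi35, Trim25, Isg20, Oas1a and Parp9. Trim25, Isg20, Oas1a and Parp9 differed by 0.44, 0.72, 0.95 and 0.62 on the log2 scale (adjusted p = 0.162 to 0.263), higher in culture. Isg20 read 108, 92.9 and 64.9 in RhoA-KO arrays, against 87.5, 88.8 and 87.1 in Wildtype arrays of cultured cells, and Trim25 935, 1024 and 929.8 in RhoA-KO arrays, against 919.8, 755 and 935 in Wildtype arrays. In fresh cells, Oas1a read 299.8 and 189 in RhoA-KO arrays, against 281 and 221 in Wildtype arrays, and Parp9 674 and 472 in RhoA-KO arrays, against 616 and 597 in Wildtype arrays. For both, RhoA-KO replicate 2 was the lowest fresh array. The last of the 6 with the smallest p was Adar, with a difference of 0.36 (adjusted p = 0.319), and it read 481 and 494 in RhoA-KO arrays, against 498 and 466 in Wildtype arrays of fresh cells.

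In the genotype comparisons, probe sets of a gene mostly pointed one way. In culture 7 members had more than 1 tested probe set, and the signs differed in Trim25 (-0.017 to 0.36) and Samhd1 (-0.046 to 0.27). In fresh cells 7 members had more than 1, and none had opposite signs. In rank between culture and fresh cells, probe sets of some genes disagreed. Xaf1 and Tap1, counted as lower, each had another probe set that was higher by the rule. Tap1 also had another that was lower and another without a rank call. Rsad2, Parp14 and Psmb8 were counted as lower too, but none of their other probe sets met the rule in either direction. Dhx58 and Cmpk2, without a rank call, each had another that was higher. These higher probe sets read under 10 on every cultured array. Dtx3l had another that was lower, and those of Ddx58 and Stat2 are given above.

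The ligands, receptors and signalling genes of the pathway were followed alongside, from a list of 34 of which 29 were measured. In culture 21 were tested and 0 called, with 0 higher and 1 lower at an unadjusted p under 0.05 (7.16% and 8.49% of all probe sets). In fresh cells 22 were tested and 0 called, with 0 higher and 5 lower (6.01% and 6.89% of all probe sets). The receptor genes Ifnar1 and Ifnar2 ranked from 76.2 to 77.8 on cultured arrays and from 74.3 to 75.7 on fresh arrays for Ifnar1 and from 77.2 to 80.2 on cultured arrays and from 70.1 to 75.3 on fresh arrays for Ifnar2. The interferon genes Ifnb1, Ifna4 and Ifng read under 10 on every cultured array and 26.3 to 35.6, 21.7 to 29.3 and 20.6 to 40.3 on fresh arrays. In rank, 5 of the 29 were lower in culture (Ifnlr1, Irf1, Irf5, Irf8 and Socs1) and 1 was higher (Tlr7), which is 17.2% and 3.45%, against 14.3% and 11.7% of all genes. Irf1, a transcription factor induced by interferon gamma, ranked from 67.1 to 72.6 on cultured arrays and from 94.8 to 96.6 on fresh arrays. Socs1, the feedback inhibitor of the receptor kinases, ranked on average at 1.53 in culture and at 52.4 in fresh cells. The dimmer Tlr7 and Irf8 were under the median on average in both conditions.

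A second list held 34 further interferon-induced genes, of which 33 were measured. None was called in culture (22 tested, 3 higher and 0 lower at an unadjusted p under 0.05) or in fresh cells (23 tested, 0 higher and 3 lower). Of all probe sets, 7.16% were higher and 8.49% lower in culture at this p, and 6.01% and 6.89% in fresh cells. By rank 9 of the 33 were lower in culture (27.3%, against 14.3% of all genes) and 5 higher (15.2%, against 11.7%). The lower ones included Nlrc5, a regulator of class I genes (from 65.6 to 74.0 on cultured arrays and from 93.1 to 94.1 on fresh arrays), Tap2, the partner of Tap1 (from 63.9 to 65.3 on cultured arrays and from 87.1 to 89.7 on fresh arrays), and Igtp, an immunity-related GTPase gene (from 22.4 to 23.7 on cultured arrays and from 71.4 to 72.5 on fresh arrays). The class I antigen presentation genes B2m and H2-K1 ranked high in both, from 98.4 to 98.8 on cultured arrays and from 99.6 to 99.7 on fresh arrays for B2m and from 95.6 to 96.7 on cultured arrays and from 99.1 to 99.2 on fresh arrays for H2-K1. The 5 that ranked higher were Ifi204, Trim30a, Rtp4, Gbp3 and Iigp1, and their cultured signals lay between 7.67 and 13.7, at or near the floor.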

How the data were processed

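Total RNA was labelled with a 3′ IVT kit and hybridised to Affymetrix GeneChip arrays of the mouse genome, per the labels' protocols. The values are linear intensities (called signal here) as deposited by the authors, 1 for each probe set on each array. The submitters' processing notes name MAS5 without version or settings, and their scaling is not described there. The difference in scale between cultured and fresh arrays was read from the values.

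Symbols came from the platform annotation, updated by Entrez identifier through the RefSeq table of GRCm38.p6. Of 45037 probe sets 34945 had 1 symbol, 932 several and 9160 were unnamed here. Signals were taken to log2. Probe sets that exceeded the median of their array on 2 or more arrays of a condition were fitted with limma 3.58.1 in R 4.3.3 (lmFit, eBayes with trend, 2-sided), each condition alone, and p-values were adjusted by Benjamini-Hochberg over all of them, with a threshold of 0.05. The difference between conditions used both fits, with standard errors combined and degrees of freedom summed.

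The number of arrays limits the precision. Tested on simulated data, the comparison in culture (22682 probe sets) found 59% of changes of 2-fold and 85% of those of 4-fold, with 3 false calls. That in fresh cells (22893 probe sets) found 21% and 79%, also with 3 false calls. The simulated noise was drawn for each probe set alone, without differences shared across an array such as those of fresh RhoA-KO replicate 2. These figures therefore need not hold for the real arrays. The members and gene lists were chosen with earlier results of these data known. Values on every array are given for members called, the 6 with the smallest p in each comparison, the 3 largest rank shifts in each direction without overlap, and Stat2, Irf9 and Irf7. Other members are named after their values were seen.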

Additional observations from a re-analysis of the deposited data

Results flagged for a closer look

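The RhoA-KO effect on Ifi35 differed between culture and fresh cells by 0.59 on the log2 scale (SE 0.13, adjusted p = 0.0466, t from both limma fits with degrees of freedom summed). It was the 1 difference between conditions past the threshold among the 15 members tested in both. As given above, it did not pass with the more cautious Satterthwaite degrees of freedom or with most single arrays left out. On the representative probe set RhoA-KO was higher on 3 of 3 arrays in culture, and in fresh cells the groups overlapped. The second probe set did not overlap in fresh cells. There it read 651 and 547 in RhoA-KO arrays, against 546 and 464 in Wildtype arrays (log2 change 0.25, limma adjusted p = 0.531). The third overlapped in fresh cells (log2 change 0.14, limma adjusted p = 0.697). On the other Ifi35 probe sets the differences were 0.40 (adjusted p = 0.301) and 0.25 (adjusted p = 0.436), and neither passed.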

How the results depend on the processing

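In rank, 19 members were lower in culture with any 1 array left out, and the count was 23 at 10 points (24.8% of all genes met that rule), 18 in RhoA-KO arrays (14.3%), 19 in Wildtype arrays (14.6%) and 15 with the median over probe sets. It was 11 at 30 points (8.18%), 10 with ranks under the median tied and 7 when a crossing of the median was required, the last 2 rules being chosen after seeing the data. The 2 higher members became 4 at 10 points (22.7% of all genes), 0 at 30 points (6.27%), 0 with tied ranks and 1 to 3 with 1 array left out. No share of all genes is given for the median over probe sets or for 1 array left out. Those counts therefore stand without a background.

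Ifi35 was the 1 member called in culture. The count was 0 with log2(signal + 16), the median over probe sets, no filter, no trend, the replicate block, without both replicate 1 arrays (an alternative chosen after seeing the data), and without any 1 array (0 to 0). Over all probe sets the 62 calls in culture became 250 at an adjusted p under 0.1, 299 with array weights, 25 genes with the median over probe sets, 2 with no filter, 7 with no trend, 395 in 1 fit over 10 arrays, 17 with the replicate block, 314 without both replicate 1 arrays and 0 to 95 with 1 array left out. In fresh cells the 0 members became 1 in the fit over 10 arrays (393 probe sets) and 0 to 5 with 1 array left out (0 to 945 probe sets). For the difference between conditions the 1 member became 0 with the median over probe sets, no filter, no trend, 1 fit over 10 arrays and Satterthwaite degrees of freedom, and 0 to 5 with 1 array left out. Its 367 probe sets became 924 at an adjusted p under 0.1, 700 with array weights, 555 with the replicate block, 820 without both replicate 1 arrays, 165 with Satterthwaite degrees of freedom and 28 to 1613 with 1 array left out. Deviations of same-numbered RhoA-KO and Wildtype arrays correlated at 0.322, 0.0809 and 0.249 in culture and at -0.0548 in fresh cells. Those of differently numbered arrays in culture correlated at -0.300 to 0.172. Same-numbered cultured arrays may therefore share part of their spread. No label says whether the numbers pair samples, and the main fits did not pair them. With the replicate block Ifi35 in culture had an adjusted p of 0.0818.

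Signs turned only in comparisons where the member was not called, Ifi35 in fresh cells among them. With 1 array left out, the log2 change in culture ran from -0.18 to 0.19 for Isg20 and from -0.24 to 0.44 for Stat2, and Stat2 was -0.23 without both replicate 1 arrays. In fresh cells it ran from -0.056 to 0.17 for Ifi35, from -0.40 to 0.27 for Oas1a, from -0.030 to 0.067 for Adar, from -0.066 to 0.58 for Samhd1, from -0.36 to 0.15 for Parp9 and from -0.17 to 0.038 for Irf7. The difference between conditions ran from -0.31 to 0.33 for Samhd1, from -0.47 to 0.24 for Ifih1 and from -0.042 to 0.66 for Irf9. It was -0.21 for Samhd1 with the median over probe sets, and for Ifih1 0.036 with array weights and 0.13 without both replicate 1 arrays. The median log2 change of the tested members in culture, 0.14, was 0.075 with log2(signal + 16) and 0.030 in 1 fit over 10 arrays. Over all named members, medians and alternatives, 517 values kept their direction and side of the threshold, 25 no longer passed, 9 newly passed and 22 turned sign. The cause of these changes was not tested. For members at the cultured floor a genotype effect could not be measured.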

Other observations

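Tap1 and Psmb9 lie head to head on chromosome 17, and their promoter windows share 275 bases (chr17:34187306-34187580, GRCm38.p6). Psmb9 was under the array median on every cultured array, with ranks from 41.7 to 48.0 on cultured arrays and from 92.2 to 94.3 on fresh arrays, while Tap1 stayed above it, with ranks from 67.9 to 72.6 on cultured arrays and from 94.8 to 96.0 on fresh arrays. Both windows held no match to the ISRE or GAS letters.

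Among the 28 measured members with a promoter sequence, 4 of the 13 that ranked lower in culture had an ISRE match, and so did 5 of the 13 without a rank call and 1 of the 2 that ranked higher. No test was made.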
